A study of Homo sapiens with 59 samples.

Results

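The genes described are 218 human zinc finger genes named ZNF and a number. They were chosen by level alone: in each of 7 deposited tables, the average over all libraries had to reach 200 normalised counts. They are 218 of 463 such symbols listed in any table, and 218 of 24174 genes listed in all 7. Bulk RNA was sequenced from Jurkat, a human line derived from a T cell leukaemia. Restricted cells were labelled 25% histidine, 25% methionine, 25% phenylalanine, 25% tryptophan, 25% isoleucine, 25% leucine or 25% valine, each of them an essential amino acid. They were collected at day 3, as were control cells. Histidine, methionine, phenylalanine and tryptophan each had a control group of their own, and isoleucine, leucine and valine shared a branched-chain amino acid control (labelled BCAA control). Each group held 5 libraries, except the branched-chain control, which held 4, and the 59 libraries are all of this 1 cell line. The medium of the controls is not described in the sources used here. Each comparison asks whether the mRNA of a zinc finger gene differed between restricted cells and their control, and histidine is set beside the other 6 amino acids because zinc fingers are built around histidine and cysteine.

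A C2H2 zinc finger is a short protein fold in which a pair of cysteines and a pair of histidines hold a zinc ion, and arrays of such fingers read DNA. Many ZNF proteins also carry a KRAB domain, which recruits TRIM28 and, through it, the histone methyltransferase SETDB1, and many KRAB proteins silence transposable elements. Others act as promoter activators, as parts of co-repressor complexes, or on RNA, ribosomes and the spindle. The coding sequences (GENCODE, GRCh38) bore out the family label: 214 of the 218 encode at least 1 C2H2 finger by pattern, with a median of 10 and up to 33. The other 4, ZNF330, ZNF738, ZNF839 and ZNF862, had no match in the transcript examined. A KRAB match was found in 108 members, and 84 of the 218 (38.5%) lie on chromosome 19. Histidine made up a median of 5.90% of member codons and 2.43% of those of 19455 other coding genes, and cysteine 5.23% and 2.03%. Of 8123 histidine codons in the members, 68.1% lay inside finger matches.

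The coding sequence of 1 finger of 6 members shows where this histidine comes from. ZNF134, ZNF319 and ZNF605 are given because they rose in several comparisons, ZNF549 because it had the largest rise under histidine restriction, and ZNF581 and ZNF367 because they had the largest falls. Capitals mark the codons of the zinc-binding cysteines (TGC or TGT) and histidines (CAC or CAT).
ZNF134: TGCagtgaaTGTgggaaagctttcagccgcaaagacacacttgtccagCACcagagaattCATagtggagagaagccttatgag
ZNF319: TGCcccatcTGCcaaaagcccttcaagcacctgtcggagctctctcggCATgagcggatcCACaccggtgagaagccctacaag
ZNF605: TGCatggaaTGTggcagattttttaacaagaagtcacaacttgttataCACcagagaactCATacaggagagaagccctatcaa
ZNF549: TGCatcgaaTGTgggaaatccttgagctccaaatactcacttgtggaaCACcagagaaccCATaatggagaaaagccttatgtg
ZNF581: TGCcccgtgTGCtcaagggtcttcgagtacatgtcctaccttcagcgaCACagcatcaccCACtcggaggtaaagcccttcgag
ZNF367: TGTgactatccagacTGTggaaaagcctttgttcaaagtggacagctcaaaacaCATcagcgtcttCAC
In GRCh38 these lie at chr19:57620651-57620734, chr16:57997573-57997656 (minus strand), chr12:132926705-132926788 (minus strand), chr19:57537920-57538003, chr19:55644836-55644919 and chr9:96394857-96394925 (minus strand), each within 1 exon. They run 5′ to 3′ along the coding strand over 28 codons, from the first cysteine of a finger to the base before the next finger. The ZNF367 finger, 23 codons long, has a longer first loop and ends at its last histidine. The ZNF319 finger encodes 3 histidines and the other 5 encode 2.

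Normalised totals were about 14900000 to 20500000 per library, and reads estimated from the steps between low values about 11800000 to 35800000. Among T-lineage markers, CD3E ranged from 10605 to 20620 and LCK from 8381 to 15794 normalised counts, while CD28 was low, at 8.58 to 288. The monocyte and erythroid markers CD14 and GATA1 were at 0 in the lowest library that lists them and at most at 25.1 in the highest. LYZ, HBB and EPCAM, markers not listed for every amino acid, had medians of 0 and reached 32.1, 40.0 and 199.6. CD79A, KRT18 and COL1A1 were present in every library, at up to 817, 526 and 4358. In 5 libraries ribosomal protein mRNA took a share well above that of their group: 9.50% in phenylalanine-restricted 2, 11.9% in phenylalanine control 1, 7.54% in valine-restricted 2, 12.0% in branched-chain control 1 and 8.01% in histidine control 5. Results that rest on these libraries are given with and without them, an alternative chosen after the values were seen. Whether replicate libraries stem from separate cultures is not labelled, so p-values speak only to the scatter among them, which may be technical. In bulk RNA, fewer cells with a transcript and less transcript per cell cannot be told apart. For 62 members over 10% of the 31-base stretches of the coding sequence also occur in transcripts of another gene. Read-through genes named for the member were not counted as other genes. Untranslated parts of the members' transcripts were not compared, so shared percentages below are of the coding sequence only. Besides this, 120 members overlap a gene on the opposite strand. In both cases the counts are less certain.

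Members' lowest table means ran from 201 to 4337 normalised counts, with a median of 474. ZNF664 stood highest, followed by ZNF207 (lowest table mean 2925) and ZNF146 (2735). At the level used for choosing, ZNF200 (201), ZNF606 (202) and ZNF557 (204) were just inside, and ZNF607 (198), ZNF749 (198) and ZNF707 (196) just outside. The 218 genes together made up about 1% of all normalised counts. Their share was 0.944% ± 0.0138 in histidine-restricted libraries and 0.872% ± 0.0421 in controls (SD, n = 5 each). Under methionine restriction it was 1.23% ± 0.0335, against 0.927% ± 0.0312. Phenylalanine-restricted libraries held 1.08% ± 0.103, against 0.941% ± 0.0826 in controls, and tryptophan-restricted libraries 1.12% ± 0.0233, against 0.996% ± 0.0156. The members' summed normalised counts were nevertheless lower under tryptophan restriction, at 175566 ± 3520 against 184403 ± 5352 in controls, with an overlap. All normalised counts together were lower in every tryptophan-restricted library than in any tryptophan control, so the higher share is not a higher sum. In every other table the mean sum of the members was higher in restricted libraries than in controls. In the isoleucine, leucine and valine tables the restricted shares were 0.989% ± 0.0194, 1.08% ± 0.0333 and 1.12% ± 0.0849 (SD, n = 5), against 0.929% ± 0.103, 0.930% ± 0.103 and 0.928% ± 0.103 in the 4 controls they share. The restricted and control shares did not overlap in the histidine, methionine, tryptophan and leucine tables, and overlapped in the other 3. In the phenylalanine and valine tables only restricted library 2, rich in ribosomal protein mRNA, overlapped the controls. The lowest of the remaining restricted libraries was at 1.11% in both, where the highest controls were at 0.998% and 0.993%. In the isoleucine table the overlap remained without branched-chain control 1. Each of the 5 libraries rich in ribosomal protein mRNA had the lowest share of its group, at 0.899% and 0.799% in the phenylalanine table, 0.973% and 0.774% in the valine table and 0.803% in histidine control 5. Ribosomal protein mRNA itself ran from 2.82% to 3.37% in methionine-restricted libraries, against 6.32% to 7.88% in controls. It ran from 5.62% to 6.02% in histidine-restricted libraries, against 6.13% to 8.01% in controls, again with no overlap. Its part in the members' share was not tested.

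**Figure D1:**
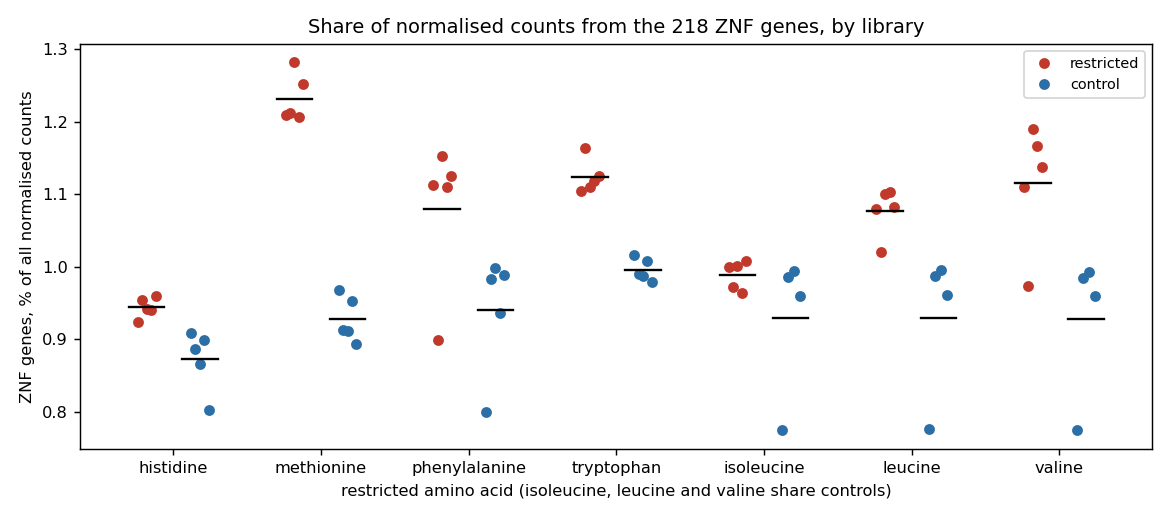
Share of all normalised counts taken by the 218 ZNF genes (y axis, %) in every library, by restricted amino acid (x axis); points are libraries, bars are group means, restricted left of control. Methionine-restricted libraries lie at 1.21% to 1.28%, above all their controls, and the lowest points of the phenylalanine, valine-restricted, branched-chain control and histidine control groups are libraries rich in ribosomal protein mRNA.

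All 218 members passed the filter on low values in all 7 tables and were tested among all genes. A member was called when its Benjamini-Hochberg adjusted p over all genes of the table was below 0.05 (limma on log2 of the normalised count + 1). Histidine restriction raised 41 members and lowered 18, where 15.6% of all tested genes rose and 12.3% fell. Methionine restriction raised 109 and lowered 28, with 27.8% and 25.4% of all genes. Phenylalanine restriction raised 16 and lowered 5, against backgrounds of 4.11% and 6.09%. Tryptophan restriction raised 48 and lowered 60, against 23.6% and 27.7%. Leucine restriction raised 25 and lowered 3, against 3.41% and 4.33%, and valine restriction raised 24 and lowered 4, against 5.13% and 7.36%. In the isoleucine table limma called no member and no gene (0% in both directions). There the smallest adjusted p of a member was 0.797, and 19 members, all of them higher, had an unadjusted p below 0.05, a mark that 3.02% of all genes passed upwards and 2.23% downwards.

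The share of members called can be read against 9007 genes of every kind that reach the same minimum level. Of the members, 18.8% rose and 8.26% fell under histidine restriction, against 24.5% and 13.8% of genes at that level. Under methionine restriction 50.0% of members rose and 12.8% fell, against 36.9% and 28.1%. Under phenylalanine restriction 7.34% rose and 2.29% fell, against 5.20% and 8.77%, and under tryptophan restriction 22.0% rose and 27.5% fell, against 20.4% and 43.2%. The leucine shares were 11.5% and 1.38%, against 5.13% and 5.48%, and the valine shares 11.0% and 1.83%, against 6.37% and 10.0%. The median log2 fold change of the members was 0.29 under methionine restriction, where that of the 9007 genes was 0.08. Under histidine restriction the 2 medians were 0.10 and 0.08, under phenylalanine 0.11 and 0.02, and under tryptophan -0.03 and -0.14. In the branched-chain tables they were 0.09 and -0.00 (isoleucine), 0.19 and 0.02 (leucine), and 0.19 and -0.00 (valine). These are descriptions with no test of the list, and the isoleucine, leucine and valine values share control libraries.

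**Figure D2:**
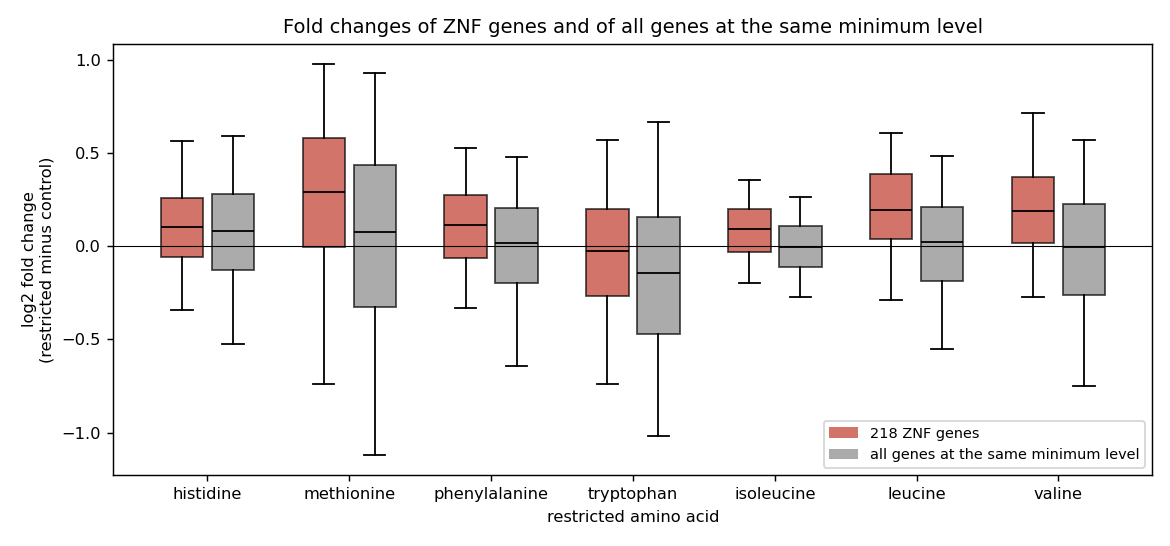
Log2 fold change of restricted over control libraries (y axis) for the 218 ZNF genes (red) and for the 9007 genes at the same minimum level (grey), by restricted amino acid (x axis); boxes span the quartiles with the median as a line, whiskers the 5th to 95th percentile. The ZNF median is 0.29 under methionine restriction and -0.03 under tryptophan restriction, and the ZNF medians lie above the grey ones in all 7 comparisons.

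Scaling bears on these splits. When every library was set to the same total, the median of all genes moved to 0.27 in the tryptophan table, 0.15 in the methionine and phenylalanine tables and 0.13 in the valine table, against 0.03, 0.02, 0.03 and 0.01 as deposited. The tryptophan split of members then became 102 higher and 30 lower, beside 48 and 60 as deposited, while 41.1% of all genes were called higher and 16.8% lower. The members' tryptophan median of 0.22 was below the all-gene median of 0.27, and -0.03 was below 0.03 as deposited, so the members lay below all genes in both scalings. They lay above the 9007 genes of the same minimum level in both, whose medians were 0.10 and -0.14. The histidine split became 56 higher and 11 lower with equal totals, where 19.0% of all genes rose and 10.8% fell (30.2% and 12.0% at the same level). With trimmed means of M values it was 60 and 9, against 20.2% and 9.11% of all genes (31.7% and 9.23%), and with weights on those means, a choice made after the values were seen, 53 and 11, against 18.7% and 10.5% (29.5% and 11.3%). Equal totals also took the phenylalanine rises to 31 and the valine rises to 47, where the rises of all genes moved to 9.03% and 10.5% (12.4% and 14.2% at the same level).

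Without the 5 libraries rich in ribosomal protein mRNA, the counts of calls grew most in the phenylalanine and valine tables. Phenylalanine restriction then raised 57 members and lowered 12, with backgrounds of 12.2% and 14.2% over all genes and 16.5% and 20.7% at the same level, and the 16 and 5 called with all libraries were among them. Valine restriction raised 65 and lowered 7, with backgrounds of 13.5% and 11.5% (20.5% and 16.3% at that level), again including all 24 and 4. For leucine the counts were 28 and 2 (backgrounds 5.20% and 4.92%, or 8.20% and 6.55%), 22 of the 25 rises being shared, and for isoleucine they stayed at 0 and 0 (background 0%). For histidine they were 42 and 21 (backgrounds 15.7% and 11.9%, or 24.7% and 15.3%), with 37 of the 41 rises and 16 of the 18 falls shared. The member medians were then 0.11 for phenylalanine, 0.22 for valine, 0.15 for leucine, 0.03 for isoleucine and 0.08 for histidine.

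Under histidine restriction no member doubled or halved, and the called members ran from a log2 fold change of -0.89 to 0.81. ZNF549, a KRAB zinc finger gene (chr19:57527325-57557542, plus strand), had 404, 432, 451, 448 and 404 normalised counts in the histidine-restricted libraries, against 260.4, 266, 224, 238 and 235 in the controls. All restricted libraries lay above all controls, and the gene was 1.75-fold higher (log2 fold change 0.81 ± 0.09 SE, adjusted p = 2.6e-05). ZNF678 (chr1:227563543-227677443, plus strand) had 566, 537, 671, 581 and 455 normalised counts in the histidine-restricted libraries, against 427, 315, 257, 335 and 294 in the controls. It was 1.73-fold higher with no overlap (log2 fold change 0.79 ± 0.14 SE, adjusted p = 7.2e-04), and 14.9% of its coding sequence is shared, mostly with ZNF208. ZNF862, which has a KRAB match and no finger match (chr7:149838367-149867479, plus strand), had 1084, 1045, 1058, 953 and 1069 normalised counts in the histidine-restricted libraries, against 602, 662, 717, 671 and 563 in the controls, and likewise did not overlap (log2 fold change 0.70 ± 0.08 SE, adjusted p = 2.9e-05).

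The largest fall under histidine restriction was that of ZNF581, a gene with 4 fingers (chr19:55635459-55645622, plus strand). It had 422, 393, 462, 434 and 462 normalised counts in the histidine-restricted libraries, against 773, 866, 814, 750.2 and 814 in the controls, and every restricted library lay far below every control (log2 fold change -0.89 ± 0.08 SE, adjusted p = 3.3e-06). ZNF512 (chr2:27582969-27623215, plus strand) had 1196, 1098, 1218, 1223 and 1154 normalised counts in the histidine-restricted libraries, against 2204, 2135, 1854, 2034 and 1965 in the controls (log2 fold change -0.79 ± 0.07 SE, adjusted p = 2.3e-06). Its groups were wide apart, but 73.9% of its coding sequence is shared, mainly with the readthrough gene AC074091.1, so which of the 2 the counts come from is uncertain. ZNF207, also called BuGZ, which binds the checkpoint protein BUB3 and helps spindle assembly (chr17:32350117-32381886, plus strand), had 2242, 2534, 2699, 2386 and 2571 normalised counts in the histidine-restricted libraries, against 4399, 3978, 3664, 3821 and 3808 in the controls. It was 1.58-fold lower with no overlap (log2 fold change -0.66 ± 0.07 SE, adjusted p = 1.4e-05), and 31.6% of its coding sequence is shared.

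Methionine restriction gave the widest spread of the members, with 10 at least doubled and 6 at least halved among those called. The 5th to 95th percentiles of log2 fold change were -0.74 to 0.98 for the members. For the 9007 genes at the same level they were -1.12 to 0.93. Shares of all genes doubled or halved are not given, so nothing particular to the members is read from these counts. ZNF787 (chr19:56087366-56121280, minus strand) had 2191, 2284, 2106, 2491 and 2325 normalised counts in the methionine-restricted libraries, against 802, 913, 901, 934 and 845 in the controls. The lowest restricted library was more than double the highest control (log2 fold change 1.37 ± 0.07 SE, adjusted p = 3.1e-09). ZNF134 (chr19:57614233-57624723, plus strand), 1 finger of which is printed above, had 924, 794, 924, 803 and 1203 normalised counts in the methionine-restricted libraries, against 374, 372, 348, 316 and 394 in the controls (log2 fold change 1.35 ± 0.11 SE, adjusted p = 3.1e-07). ZNF408, a gene mutated in inherited retinal disease (chr11:46700818-46705912, plus strand), had 1106, 1209.8, 933, 1256 and 977 normalised counts in the methionine-restricted libraries, against 372, 469, 411, 507 and 411 in the controls (log2 fold change 1.33 ± 0.11 SE, adjusted p = 2.1e-07). None of these 3 overlapped between groups.

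Of the falls under methionine restriction, that of ZNF367 (chr9:96385941-96418329, minus strand) was the largest. It had 223, 315, 244, 257 and 278 normalised counts in the methionine-restricted libraries, against 695, 783, 934, 728 and 846 in the controls, a level 3.02-fold lower (log2 fold change -1.59 ± 0.11 SE, adjusted p = 6.0e-08). ZNF738 (chr19:21358930-21379302, plus strand), with a KRAB match and no finger in the transcript examined, had 508, 579, 447, 564 and 534 normalised counts in the methionine-restricted libraries, against 1271, 1332, 1209.7, 1332 and 1564 in the controls (log2 fold change -1.35 ± 0.09 SE, adjusted p = 4.4e-08). ZNF100 (chr19:21722766-21767628, minus strand) is a KRAB gene that shares 34.4% of its coding sequence, mainly with ZNF43. It had 355, 377, 508, 329 and 452 normalised counts in the methionine-restricted libraries, against 1104, 1032, 1265, 816 and 864 in the controls (log2 fold change -1.33 ± 0.14 SE, adjusted p = 2.7e-06). In all 3 the restricted libraries lay far below the controls.

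Under phenylalanine restriction the 3 largest called rises were those of ZNF480, ZNF134 and ZNF276. ZNF480, a KRAB gene (chr19:52297177-52325922, plus strand), had 863, 692, 808, 857 and 808 normalised counts in the phenylalanine-restricted libraries, against 538, 501, 534, 378 and 436 in the controls (log2 fold change 0.76 ± 0.12 SE, adjusted p = 0.0022). ZNF134 had 817, 678, 811, 788 and 695 normalised counts in the phenylalanine-restricted libraries, against 352, 603, 447, 417 and 483 in the controls (log2 fold change 0.74 ± 0.14 SE, adjusted p = 0.006). ZNF276 (chr16:89720400-89740903, plus strand), which overlaps genes on the opposite strand, had 1210.0, 1289, 1256, 1137 and 1249 normalised counts in the phenylalanine-restricted libraries, against 608, 780.0, 634, 851 and 851 in the controls (log2 fold change 0.73 ± 0.12 SE, adjusted p = 0.002). None of the 3 overlapped.

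ZNF581 fell further here than under any other restriction, with 372, 620.4, 344, 380.0 and 386 normalised counts in the phenylalanine-restricted libraries, against 1777, 1157, 981, 1320.4 and 1209 in the controls (log2 fold change -1.62 ± 0.19 SE, adjusted p = 2.1e-04). Restricted library 2, rich in ribosomal protein mRNA, was the highest of its group yet still below every control. ZNF277 (chr7:112206588-112343096, plus strand) had 199.97, 225, 222, 317 and 273 normalised counts in the phenylalanine-restricted libraries, against 291, 584, 438, 483 and 419.7 in the controls, with controls that overlapped the restricted libraries only through control 1 (log2 fold change -0.82 ± 0.19 SE, adjusted p = 0.016). ZNF395 (chr8:28345585-28402701, minus strand) had 895, 699, 1002, 897 and 1086 normalised counts in the phenylalanine-restricted libraries, against 999.8, 1616, 1682, 1828 and 1658 in the controls (log2 fold change -0.75 ± 0.17 SE, adjusted p = 0.015). All of its coding sequence is shared with FBXO16, so the counts are uncertain. ZNF236 had the largest fitted rise of all members in this table, 0.99 ± 0.82 on the log2 scale, and was not called (adjusted p = 0.5). It was named after its value was seen.

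Tryptophan restriction raised ZNF853 most. ZNF853 (chr7:6615617-6624290, plus strand) had 457, 448, 507, 516 and 456 normalised counts in the tryptophan-restricted libraries, against 179, 211, 229.8, 185 and 261 in the controls, 2.25-fold higher with no overlap (log2 fold change 1.17 ± 0.11 SE, adjusted p = 7.2e-07). ZNF862 had 995, 949, 798, 861 and 935 normalised counts in the tryptophan-restricted libraries, against 473, 562, 449, 454 and 456 in the controls (log2 fold change 0.92 ± 0.09 SE, adjusted p = 6.2e-07). ZNF558, a KRAB gene (chr19:8806170-8832328, minus strand), had 446, 729, 568, 428 and 659 normalised counts in the tryptophan-restricted libraries, against 394, 323, 284, 271 and 263 in the controls (log2 fold change 0.86 ± 0.16 SE, adjusted p = 3.3e-04), with restricted libraries that differed widely among themselves but stayed above the controls.

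The falls under tryptophan restriction were led by ZNF367, with 309, 323, 389.9, 369 and 356 normalised counts in the tryptophan-restricted libraries, against 947, 787, 689, 744 and 689 in the controls (log2 fold change -1.13 ± 0.10 SE, adjusted p = 4.2e-07). ZNF622, a maturation factor of the large ribosomal subunit (chr5:16451519-16465792, minus strand), had 642, 630.0, 537, 655 and 618 normalised counts in the tryptophan-restricted libraries, against 1299.8, 1274, 1396, 1219 and 1301 in the controls (log2 fold change -1.07 ± 0.07 SE, adjusted p = 1.9e-08). ZNF232 (chr17:5105541-5123116, minus strand) had 241, 227, 158, 278 and 247 normalised counts in the tryptophan-restricted libraries, against 501, 467, 445, 479 and 375 in the controls (log2 fold change -0.99 ± 0.14 SE, adjusted p = 3.4e-05). All 3 were lower in every restricted library than in any control.

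Leucine restriction raised ZNF778, ZNF121 and ZNF721 most among called members. ZNF778, a KRAB gene (chr16:89217703-89237071, plus strand), had 419, 655, 499, 793 and 520.4 normalised counts in the leucine-restricted libraries, against 237, 346, 353 and 431 in the branched-chain controls (log2 fold change 0.75 ± 0.20 SE, adjusted p = 0.042), although restricted library 1 lay below the highest control. ZNF121 (chr19:9560353-9584533, minus strand) had 1519.8, 949.7, 1604, 1585 and 1369 normalised counts in the leucine-restricted libraries, against 582, 1028, 947 and 899 in the branched-chain controls (log2 fold change 0.71 ± 0.19 SE, adjusted p = 0.04), also with an overlap. ZNF721 (chr4:425815-499156, minus strand), with 23 fingers, had 1120.1, 848, 1279, 1137 and 1076 normalised counts in the leucine-restricted libraries, against 511, 679, 799.7 and 693 in the branched-chain controls and did not overlap (log2 fold change 0.71 ± 0.15 SE, adjusted p = 0.015).

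The 3 called falls under leucine restriction were those of ZNF628, ZNF865 and ZNF655. ZNF628 (chr19:55476332-55484487, plus strand) had 234, 317, 238, 302 and 351 normalised counts in the leucine-restricted libraries, against 551, 462, 356 and 434 in the branched-chain controls (log2 fold change -0.64 ± 0.16 SE, adjusted p = 0.034), and no restricted library reached the lowest control. ZNF865 was 1.42-fold lower (log2 fold change -0.50 ± 0.13 SE, adjusted p = 0.036) and ZNF655 1.27-fold lower (log2 fold change -0.34 ± 0.10 SE, adjusted p = 0.0499). Most leucine calls lay close to the threshold: leaving out 1 library at a time left 4 to 31 rises of the 25, with 9 without restricted library 1, 5 without 3, 4 without 4, 4 without 5, 13 without control 3 and 12 without control 5. For falls the same omissions left 0, 0, 0, 1, 0 and 0 of the 3. Shares of all genes under these omissions are not given, so nothing particular to the members is read from these counts. The call of ZNF778 was lost without restricted library 2, 3, 4 or 5 or control 1, 3 or 4 (0.59 to 0.79), and that of ZNF121 without restricted library 1, 3, 4 or 5 or control 5 (0.65 to 0.74). That of ZNF655 held only without restricted library 2 (-0.37), and that of ZNF721 was lost in no omission.

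Valine restriction, set against the same controls, raised ZNF276, ZNF778 and ZNF480 most. ZNF276 had 1448, 1770.2, 1259.6, 1115 and 1321 normalised counts in the valine-restricted libraries, against 749, 789, 576 and 671 in the branched-chain controls (log2 fold change 0.98 ± 0.15 SE, adjusted p = 0.0014), ZNF480 had 974, 767, 876, 891 and 880.4 normalised counts in the valine-restricted libraries, against 398, 505, 521 and 415 in the branched-chain controls (log2 fold change 0.94 ± 0.13 SE, adjusted p = 7.9e-04), and neither overlapped. ZNF778 was 1.94-fold higher (log2 fold change 0.96 ± 0.20 SE, adjusted p = 0.01). ZNF581 fell, with 424, 497, 379, 394 and 458 normalised counts in the valine-restricted libraries, against 2245, 1005, 909 and 1016 in the branched-chain controls (log2 fold change -1.49 ± 0.23 SE, adjusted p = 0.0015). Branched-chain control 1 lay far above the other 3 controls, and without it the log2 fold change was -1.19. ZNF395 and ZNF277 fell by 1.14 and 0.88 on the log2 scale (adjusted p = 1.8e-04 and 0.0074). Leaving out 1 library at a time left 12 to 45 rises of the 24, with 14, 45, 12 and 14 without restricted libraries 1, 2, 3 and 5, and 14 without control 5. Here too shares of all genes under the omissions are not given.

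Single libraries weighed on the phenylalanine counts as well. Without restricted library 1, 2, 3, 4 or 5 in turn, 8, 35, 8, 7 and 10 members were called higher instead of 16, and without control 2 there were 8. The 5 falls became 8 without restricted library 2 and 9 without control 1. In the histidine table the 18 falls became 10 without restricted library 2. No shares of all genes are given for these omissions, so nothing particular to the members is read from the shifts.

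In the isoleucine table the members' fold changes ran from -0.30 to 0.65. ZNF562 was highest (log2 fold change 0.65 ± 0.20 SE, adjusted p = 0.8) and ZNF579 lowest (log2 fold change -0.30 ± 0.17 SE, adjusted p = 0.8), both named after their values were seen, and neither was called. The groups did not overlap for 13 members, all higher in restricted libraries, where 1.19% of all genes did so upwards and 0.818% downwards.

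Across comparisons, a few members moved the same way under most restrictions. ZNF134 was called higher under histidine (0.53 ± 0.13), methionine, phenylalanine, leucine (0.71 ± 0.10) and valine restriction (0.83 ± 0.15), and had -0.04 for tryptophan and 0.24 for isoleucine, not called. Among the 4 comparisons with separate controls, 3 members were called higher in all 4: ZNF319, ZNF605 and ZNF853. This was counted for members only, so nothing particular to them is read from it. ZNF319 (chr16:57994668-58000453, minus strand) had 437, 409, 461, 409 and 473 normalised counts in the histidine-restricted libraries, against 254, 319, 308, 327 and 201 in the controls (log2 fold change 0.65 ± 0.13 SE, adjusted p = 0.0022). On the log2 scale it rose by 0.53 ± 0.11 (methionine), 0.58 ± 0.13 (phenylalanine), 0.39 ± 0.08 (tryptophan) and 0.44 ± 0.12 (valine). ZNF605, a KRAB gene of 17 fingers (chr12:132918308-132956306, minus strand), had 538, 509, 492, 501 and 499 normalised counts in the histidine-restricted libraries, against 399, 394, 384, 385 and 373 in the controls (log2 fold change 0.39 ± 0.07 SE, adjusted p = 0.0016), and rose by 0.40, 0.52, 0.52 and 0.77 in the same 4 others. ZNF84, a KRAB gene on the same chromosome with 19 fingers, rose under histidine (0.58), methionine (0.34), tryptophan (0.37), leucine (0.48) and valine restriction (0.65). Their directions were the same with equal totals, which took the tryptophan values of ZNF319 and ZNF84 to 0.63 and 0.62. The phenylalanine call of ZNF605 was lost without restricted library 1, 3, 4 or 5 or control 2, 3 or 4 (0.48 to 0.55, adjusted p 0.054 to 0.092), and the valine call of ZNF319 without restricted library 1, 3, 4 or 5 or control 3, 4 or 5 (0.40 to 0.45, adjusted p 0.068 to 0.12). The valine call of ZNF84 was lost without restricted library 3 (0.59, adjusted p = 0.053). Its leucine call was lost without restricted library 1, 3, 4 or 5 or control 1, 4 or 5 (0.36 to 0.52, adjusted p 0.056 to 0.12).

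Among those 4 comparisons no member was called lower in all, and 6 were in 3: ZNF100, ZNF207, ZNF277, ZNF367, ZNF43 and ZNF581. ZNF581 was the exception to its own pattern under tryptophan restriction, with 579, 546, 566, 572 and 491 normalised counts in the tryptophan-restricted libraries, against 448, 521, 523, 454 and 506 in the controls, groups that overlapped (log2 fold change 0.17 ± 0.08 SE, adjusted p = 0.092). With equal totals it was called higher there (0.41, adjusted p = 0.00068). Of the 218 members, 34 were called in both directions among the 4 comparisons and 32 in none. For these counts over several comparisons no shares of all genes are given, so nothing particular to the members is read from them.

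**Figure D3:**
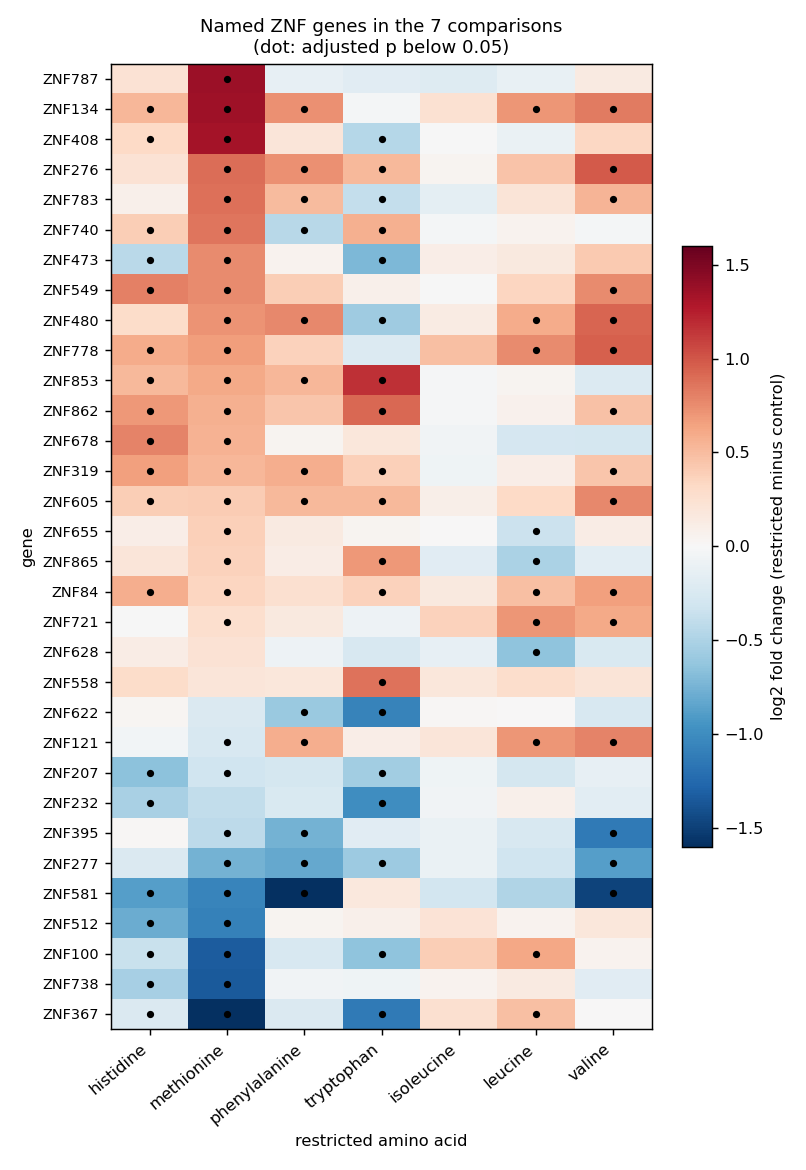
Log2 fold change of restricted over control libraries (colour) for the named ZNF genes (rows, ordered by methionine) in the 7 comparisons (columns); dots mark adjusted p below 0.05. ZNF581 is blue with a dot in the histidine, methionine, phenylalanine and valine columns, and the isoleucine column holds no dot.

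Members that turned direction were led by ZNF480, ZNF740, ZNF783 and ZNF100. ZNF480 rose under methionine (0.72), phenylalanine, leucine (0.59) and valine restriction (0.94), and under tryptophan restriction it fell, with 577, 776, 761, 893 and 843 normalised counts in the tryptophan-restricted libraries, against 1368, 1073, 1041, 1218 and 988 in the controls (log2 fold change -0.57 ± 0.12 SE, adjusted p = 0.001). ZNF740 (chr12:53180700-53195141, plus strand) had 2911, 2969, 3023, 3294 and 3264 normalised counts in the methionine-restricted libraries, against 1756, 1646, 1584, 1774 and 1742 in the controls (log2 fold change 0.86 ± 0.06 SE, adjusted p = 8.0e-08). Under phenylalanine restriction the order was the opposite, with 1457, 1513, 1637, 1713 and 1768 normalised counts in the phenylalanine-restricted libraries, against 2087, 2255, 2294, 2227 and 2121 in the controls (log2 fold change -0.44 ± 0.09 SE, adjusted p = 0.0063). It rose under histidine (0.39) and tryptophan restriction (0.57), and was within 0.06 of 0 in the 3 branched-chain tables. ZNF783, a KRAB gene, rose under methionine, phenylalanine and valine restriction (0.88, 0.51 and 0.55) and fell under tryptophan restriction (-0.38), where the value was -0.13 with equal totals and no longer called. Its phenylalanine call was lost without restricted library 3 or 4 or control 2 or 3 (0.43 to 0.50, adjusted p 0.056 to 0.071), and its valine call without restricted library 1, 3 or 4 or control 3 or 5 (0.50 to 0.59, adjusted p 0.053 to 0.080). ZNF100 fell under histidine, methionine and tryptophan restriction (-0.36, -1.33 and -0.64) and rose under leucine restriction (0.62), a call lost without restricted library 3 (0.60), 4 (0.59) or 5 (0.59). The leucine call of ZNF480 was lost without restricted library 1, 3, 4 or 5 or control 5 (0.54 to 0.59, adjusted p 0.066 to 0.074). With equal totals the tryptophan falls of ZNF480 and ZNF100 were -0.32 and -0.40.

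**Figure D4:**
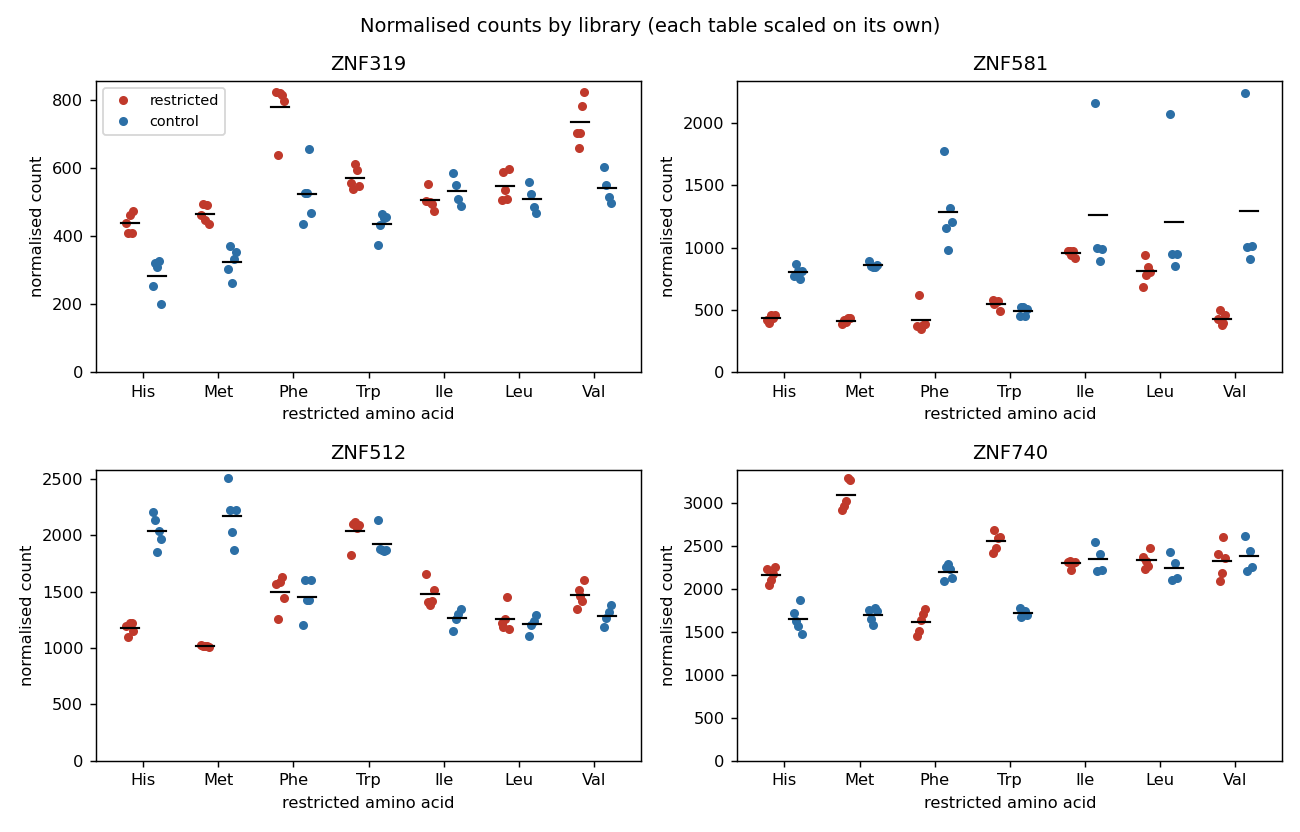
Normalised counts of ZNF319, ZNF581, ZNF512 and ZNF740 (y axis, from 0) in every library by restricted amino acid (x axis), restricted left of control; points are libraries, bars are group means, and each table was scaled on its own. ZNF581 is called lower in restricted libraries of the histidine, methionine, phenylalanine and valine tables, and 1 branched-chain control stands far above the others.

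Histidine restriction was then set beside each other amino acid by testing the difference between the 2 fold changes, with all 6 differences sharing the histidine libraries. Against methionine, 17 members had a higher and 63 a lower fold change under histidine restriction, where 18.6% and 15.8% of all genes did, and 23.5% and 20.8% of those at the same level. Against tryptophan it was 62 higher and 27 lower (25.7% and 17.5% of all genes, 41.1% and 13.1% at that level), which became 33 and 56 with every library set to the same total. Against phenylalanine 4 were higher and 8 lower (6.34% and 3.32%, or 9.44% and 4.27%), and against isoleucine 13 and 10 (7.26% and 4.93%, or 10.6% and 6.25%). Leucine gave 11 and 22 (10.0% and 6.56%, or 13.8% and 8.76%), and valine 7 and 14 (8.52% and 4.71%, or 12.7% and 6.01%). The members' median difference, histidine minus the other, was -0.16 (methionine), -0.02 (phenylalanine), 0.12 (tryptophan), 0.02 (isoleucine), -0.12 (leucine) and -0.08 (valine). With equal totals the tryptophan difference changed sign to -0.08, and the others were -0.24 (methionine), -0.10 (phenylalanine), 0.01 (isoleucine), -0.13 (leucine) and -0.15 (valine). With trimmed means of M values the phenylalanine difference was 0.03. Without the libraries rich in ribosomal protein mRNA the counts were 15 and 20 against phenylalanine and 9 and 29 against valine. For the differences, shares of all genes under equal totals or without these libraries are not given here. Equal totals also moved the tryptophan median of all genes from 0.03 to 0.27. Nothing particular to the members is therefore read from the counts under these 2 settings.

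Across the 218 members, log2 fold changes under histidine restriction correlated with those under methionine restriction at a Pearson r of 0.52, and with those under phenylalanine, tryptophan, isoleucine, leucine and valine restriction at 0.46, 0.23, 0.07, 0.15 and 0.35. Over the 9007 genes at the same level the values were 0.54, 0.42, 0.25, 0.05, 0.18 and 0.34. Genes are not independent replicates, and each value shares the histidine libraries.

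The most frequent differences between histidine and the others were those of ZNF512 and ZNF473, called against all 6. ZNF512 fell under histidine and methionine restriction and not in the other 5 tables. In the phenylalanine table it had 1571, 1254, 1584, 1634 and 1446 normalised counts in the phenylalanine-restricted libraries, against 1202, 1602, 1429.8, 1427 and 1599.9 in the controls, groups that overlapped, and the difference from histidine was -0.83 ± 0.12 SE, adjusted p = 1.6e-04. Against tryptophan, isoleucine, leucine and valine the differences were -0.87, -1.01, -0.84 and -0.98. Against methionine, where it fell more, the difference was 0.30 ± 0.10 SE, adjusted p = 0.022, not called with equal totals (adjusted p = 0.11).

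ZNF473, a protein of the U7 small nuclear ribonucleoprotein pathway that processes histone mRNA (chr19:50025714-50053414, plus strand), encodes 18 fingers. It had 433, 418, 338, 379 and 403 normalised counts in the histidine-restricted libraries, against 577, 544, 537, 495 and 498 in the controls (log2 fold change -0.43 ± 0.09 SE, adjusted p = 0.0033). Under methionine restriction it had 921, 728, 874, 963 and 931 normalised counts in the methionine-restricted libraries, against 488, 548, 597, 490.4 and 486 in the controls (log2 fold change 0.76 ± 0.10 SE, adjusted p = 1.5e-05), so the groups were ordered oppositely. The difference between histidine and methionine was -1.19 ± 0.13 SE, adjusted p = 3.1e-07. Those against phenylalanine (-0.49 ± 0.15 SE, adjusted p = 0.042) and tryptophan (0.30 ± 0.12 SE, adjusted p = 0.047) lay close to the threshold and were lost under several settings, and with equal totals the tryptophan difference was 0.09.

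ZNF738, ZNF740 and ZNF207 differed from histidine in 5 comparisons each, and ZNF678 in 4. ZNF738 fell by 0.54 on the log2 scale under histidine restriction and more under methionine restriction, and had -0.06, -0.07, 0.06 and 0.15 under phenylalanine, tryptophan, isoleucine and leucine restriction. ZNF207 fell more under histidine than under methionine restriction (difference -0.34 ± 0.10 SE, adjusted p = 0.013), with -0.07, -0.29 and -0.13 in the isoleucine, leucine and valine tables. ZNF678 was higher under histidine restriction than under tryptophan, isoleucine, leucine and valine restriction, by 0.62, 0.85, 1.06 and 1.08.

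The share of histidine codons was compared with the response of each member. Spearman's rho between the share of histidine codons and the log2 fold change was -0.01 under histidine restriction and -0.02 under methionine restriction, and 0.20 (phenylalanine), 0.10 (tryptophan), 0.20 (isoleucine), 0.23 (leucine) and 0.24 (valine) under the others (n = 218 members that share libraries). For the number of fingers the values were 0.03, -0.03, 0.17, 0.02, 0.25, 0.28 and 0.17 in the same order. ZNF134 and ZNF319, with 8.67% and 8.25% histidine codons, rose under histidine restriction, and so did ZNF862, with 2.48%. ZNF581, with 6.60%, fell.

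**Figure D5:**
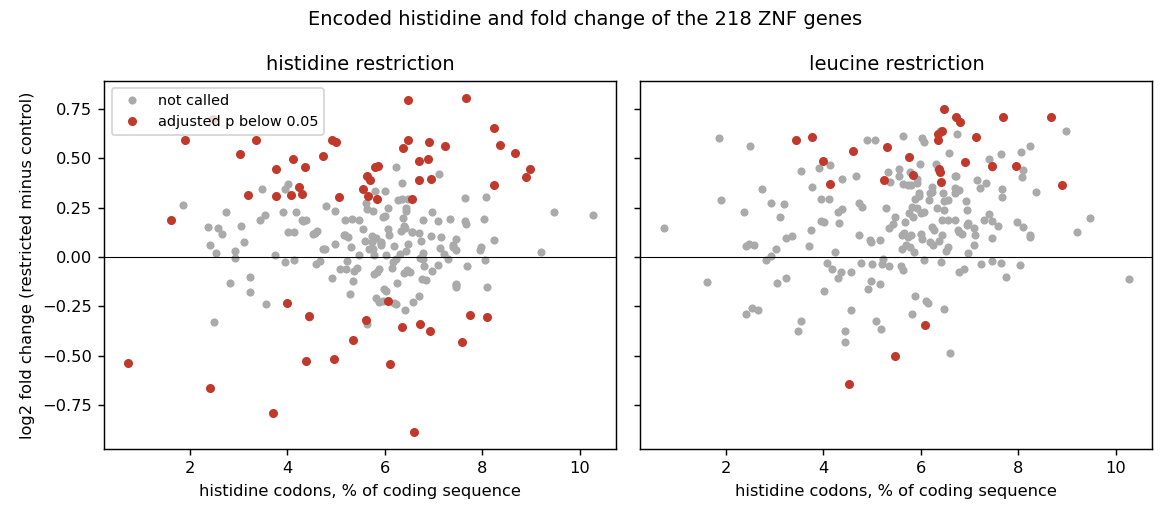
Log2 fold change of restricted over control libraries (y axis) against the share of histidine codons (x axis, %) for the 218 ZNF genes under histidine and leucine restriction; red points have an adjusted p below 0.05. Rises and falls under histidine restriction lie at all histidine shares (rho -0.01), and the leucine panel leans upward (rho 0.23).

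The calls were also counted by the number of fingers and by the KRAB match, with no test of these splits. Of genes at the members' level, 24.5% rose and 13.8% fell under histidine restriction, and 36.9% and 28.1% under methionine restriction. Under tryptophan restriction 20.4% of them rose and 43.2% fell (39.9% and 26.4% with equal totals). Of 37 members with under 5 fingers, 17 rose and 12 fell under methionine restriction, 8 rose and 15 fell under tryptophan restriction, and all 5 falls under phenylalanine restriction were among them. Of 41 with 15 or more fingers, 18 rose and 5 fell under methionine restriction and 8 rose and 9 fell under tryptophan restriction. With equal totals the tryptophan counts were 17 and 6 for the first group and 17 and 6 for the second. The 108 KRAB members included 19 rises and 7 falls under histidine restriction and 49 and 13 under methionine restriction, and the other 110 included 22 and 11, and 60 and 15. The KRAB members held none of the falls under phenylalanine, leucine or valine restriction, which numbered 5, 3 and 4 among the 110 members without a KRAB match. Of genes at the members' level, 8.77%, 5.48% and 10.0% fell under these restrictions. The falls are few, so nothing particular to the KRAB match is read from them. Members on chromosome 19 had 14 rises and 9 falls of 84 under histidine restriction, and 37 and 11 under methionine restriction. Of 190 ZNF symbols below the level in the histidine table that were tested, 17 rose and 16 fell, and under methionine restriction 62 of 184 rose and 32 fell. Over all tested genes 15.6% rose and 12.3% fell under histidine restriction, and 27.8% and 25.4% under methionine restriction.

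Members named for their roles moved in several ways. Among activators at promoters, ZNF143, which drives small nuclear RNA and many housekeeping genes, had 672, 649.9, 678, 759 and 608 normalised counts in the histidine-restricted libraries, against 528, 536, 488, 469 and 433 in the controls (log2 fold change 0.46 ± 0.09 SE, adjusted p = 0.0018). It rose under methionine (log2 fold change 0.53 ± 0.16 SE, adjusted p = 0.011) and fell under tryptophan restriction (log2 fold change -0.98 ± 0.13 SE, adjusted p = 2.8e-05), where it had 499, 318, 310.1, 451 and 453 normalised counts in the tryptophan-restricted libraries, against 923, 810.2, 732, 771 and 711 in the controls. Its groups did not overlap in the tryptophan table, and with equal totals it was still called lower (-0.73, adjusted p = 3.0e-04). Of the 6 activators listed, 3 rose and 1 fell under histidine restriction (3 and 0 with equal totals), 5 rose under methionine restriction and none fell, and 1 rose and 4 fell under tryptophan restriction, which became 1 and 2 with equal totals. At the members' level 24.5% of genes rose and 13.8% fell under histidine, 36.9% and 28.1% under methionine and 20.4% and 43.2% under tryptophan restriction. With so few genes, nothing particular to the activators is read from these counts. ZNF76, a paralogue of ZNF143, rose under methionine (0.45) and tryptophan restriction (0.48), and had -0.06 under histidine restriction, not called. ZNF281 fell under tryptophan restriction (-0.53, or -0.28 with equal totals). ZNF148 rose under histidine (0.31) and methionine (0.51) and fell under tryptophan restriction (-0.23), where equal totals gave 0.019. Its histidine call was lost when any 1 library other than restricted 3 and control 4 was left out (0.24 to 0.33). ZNF384 fell under histidine (-0.22) and tryptophan restriction (-0.26), neither called with equal totals, and rose under methionine restriction (0.30). Its histidine call was lost also without restricted library 1, 2 or 4 or control 3 (-0.22 to -0.20). ZNF410, an activator of the chromatin remodeller gene CHD4, rose under histidine (0.31) and methionine restriction (0.47), with 89.9% of its coding sequence shared. Its histidine call was lost without restricted library 2 or 4 or control 2 or 3 (0.24 to 0.30).

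Among 9 tested genes of co-repressor complexes, 3 rose under histidine restriction and none fell, 5 rose and 1 fell under methionine restriction, and 3 rose and 3 fell under tryptophan restriction (6 and 1 with equal totals). The list includes ZNF827, which is below the members' level. The shares of genes at that level given for the activators apply here too, with 39.9% higher and 26.4% lower under tryptophan restriction with equal totals. Nothing particular to this list is read from its counts. ZNF592, which belongs to a complex with ZMYND8, had 1857, 1995, 2164, 1967 and 1721 normalised counts in the methionine-restricted libraries, against 833, 1174, 967, 1123 and 1049 in the controls (log2 fold change 0.92 ± 0.10 SE, adjusted p = 2.3e-06). It also rose under histidine restriction (0.51 ± 0.10). ZNF462 rose under histidine (0.59) and methionine restriction (1.23), and ZNF516 under histidine restriction (0.50). ZNF219 was the fall under methionine restriction (-0.28). ZNF217, a subunit of LSD1-CoREST complexes, had 2717, 2763, 2618, 2853 and 3149 normalised counts in the leucine-restricted libraries, against 1385, 2006, 2026 and 2159.8 in the branched-chain controls (log2 fold change 0.59 ± 0.13 SE, adjusted p = 0.018), all restricted libraries lying above the controls, and rose under methionine restriction (0.20). ZNF644, a partner of the H3K9 methyltransferases G9a and GLP, rose under methionine (0.72) and leucine restriction (0.37) and fell under tryptophan restriction (-0.29), where equal totals gave -0.04 and no call. ZNF451, a SUMO ligase, had the same 3 signs (0.70, 0.51 and -0.52). The leucine calls of ZNF217, ZNF644 and ZNF451 were each lost without restricted library 4 (0.59, 0.34 and 0.44) or 5 (0.55, 0.33 and 0.55), and those of the last 2 without restricted library 1 (0.38 and 0.47) or 3 (0.38 and 0.55) or control 3 (0.33 and 0.54) or 5 (0.35 and 0.47). That of ZNF451 was lost also without restricted library 2 (0.53) or control 1 (0.42). ZNF687, of the same complex as ZNF592, fell under tryptophan restriction (-0.45), with -0.20 and no call under equal totals, and with -0.41 to -0.37 and no call without restricted library 1 or 2 or control 1, 3 or 4.

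Of the KRAB members that act on repeats or imprinted loci, ZNF274, which brings SETDB1 to the ends of ZNF genes themselves, had 328, 312, 261, 336 and 250.2 normalised counts in the histidine-restricted libraries, against 184, 191, 233, 184 and 188 in the controls (log2 fold change 0.59 ± 0.12 SE, adjusted p = 0.0026). It rose under methionine restriction too (0.67 ± 0.10). ZNF445, a regulator of imprinting, rose under methionine restriction (0.53), and ZNF91, which represses SVA elements, under leucine restriction (0.69), with 25.1% of its coding sequence shared. These genes were counted in a wider list of 6 to 7 tested genes, with ZNF202, ZNF268, and ZNF382 and ZNF93 from below the members' level. No role at repeats or imprinted loci is claimed here for ZNF202, ZNF268 or ZNF382. ZNF202 was the rise under valine restriction (0.72), and ZNF202 and ZNF268 rose under methionine restriction (1.17 and 1.24). Of the list, 1 rose under histidine, 4 under methionine, 1 under phenylalanine, 2 under leucine and 1 under valine restriction, and none fell. At the members' level 24.5%, 36.9%, 5.20%, 5.13% and 6.37% of genes rose under these restrictions, in the same order. With so few genes, nothing particular to the list is read from its counts. None was called under tryptophan restriction, and 4 were called higher there with equal totals.

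For ribosomes and RNA, ZNF622 fell under phenylalanine (-0.59) and tryptophan restriction, and ZNF598, the ubiquitin ligase that marks collided ribosomes, rose under methionine (0.60) and fell under tryptophan restriction (-0.43, or -0.18 and no call with equal totals). ZNF326, which links splicing to transcript elongation, rose under tryptophan restriction (0.46), and the double-stranded RNA binder ZNF346 fell (-0.41, or -0.17 and no call with equal totals). ZNF638, which helps silence unintegrated retroviral DNA, fell under methionine restriction (-0.48). Also listed here, ZNF593 (below the members' level) rose under histidine (0.84) and methionine restriction (1.52). ZNF106 rose under the same restrictions (0.31 and 0.78), and ZNF207 fell under both (-0.66 and -0.32). ZNF24 rose under methionine (0.71) and leucine restriction (0.54), the leucine call being lost without restricted library 1, 3, 4 or 5 or control 3 or 5 (0.51 to 0.60). ZNF267 fell under tryptophan restriction (-0.46, or -0.21 and no call with equal totals).

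The partners of KRAB proteins were counted from a list of 31 co-repressor and heterochromatin genes. Under histidine restriction 7 rose and 3 fell, under methionine 12 and 13, under phenylalanine 1 and 1, under tryptophan 2 and 19 (5 and 12 with equal totals), under isoleucine 0 and 0, under leucine 3 and 0, and under valine 2 and 0. Among the 9007 genes of the members' minimum level 24.5% rose and 13.8% fell under histidine restriction, 36.9% and 28.1% under methionine and 20.4% and 43.2% under tryptophan restriction, so nothing particular to the list is read from its counts. TRIM28, the KRAB co-repressor itself, fell under methionine (log2 fold change -0.29 ± 0.07 SE, adjusted p = 0.0025) and tryptophan restriction (log2 fold change -0.87 ± 0.08 SE, adjusted p = 7.3e-07), and had -0.05 for histidine. SETDB1 fell under phenylalanine restriction (log2 fold change -0.72 ± 0.13 SE, adjusted p = 0.0044). The maintenance DNA methyltransferase DNMT1 fell under methionine (-0.97) and tryptophan restriction (-1.24). Its partner UHRF1 fell under the same 2 restrictions (-0.94 and -1.01) and rose under histidine (0.31) and leucine restriction (0.49). SETDB2 rose under histidine (0.62), methionine (0.26), phenylalanine (0.46), tryptophan (0.38) and valine restriction (0.60).

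Genes of zinc homeostasis gave 5 rises and 4 falls of 22 tested under histidine restriction, 7 and 6 of 22 under methionine (8 and 2 with equal totals), 0 and 2 of 24 under phenylalanine, 5 and 5 of 24 under tryptophan (11 and 2 with equal totals), 0 and 0 of 23 under isoleucine, 1 and 2 of 22 under leucine and 0 and 2 of 24 under valine restriction. The backgrounds given for all genes and for genes at the members' level apply here too, and nothing particular to zinc genes is read from these counts. MTF1, the zinc-sensing transcription factor, rose under histidine (log2 fold change 0.46 ± 0.10 SE, adjusted p = 0.0036) and methionine restriction (log2 fold change 0.49 ± 0.07 SE, adjusted p = 4.3e-05) and fell under tryptophan restriction (log2 fold change -0.69 ± 0.07 SE, adjusted p = 1.2e-06). The zinc importer SLC39A6 fell under histidine (-0.53), methionine (-0.24) and tryptophan restriction (-0.26), the last 2 not called with equal totals. The importer SLC39A14 fell under phenylalanine, leucine and valine restriction (-0.88, -0.93 and -1.07) and under tryptophan restriction (-0.31), where it was not called with equal totals. Among other zinc finger names at the same level, 6 of 28 ZBTB genes rose and 1 fell under histidine restriction, and 12 rose and 5 fell under methionine restriction, where 24.5% and 36.9% of all genes at that level rose and 13.8% and 28.1% fell. Of 10 ZFP genes 1 rose and 1 fell, and 3 rose and 1 fell. Of 8 ZSCAN genes 3 and 6 rose in these tables and none fell, and of 6 ZKSCAN genes 1 and 5 rose and none fell.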

How the data were processed

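RNA from 59 Jurkat libraries was measured by bulk RNA-seq. The authors deposited 1 table per amino acid of normalised counts (used here as a signal per gene symbol), made, per the submitters' processing notes, with FastQC 0.11.9, kallisto 0.50.1 and DESeq2 1.44.0 on GRCh38; settings, annotation release and strandedness were not given in the sources used here. Only 43.3% to 81.2% of low values were whole multiples of a step within 0.1, so no count model was run. Each table was tested on its own, restricted against control, with limma 3.58.1 (R 4.3.3, moderated variance with an intensity trend) on log2(normalised count + 1), for genes with a mean of at least 10, with Benjamini-Hochberg adjustment over all genes. Fold changes are on this log2 scale and understate low genes. Differences between histidine and another amino acid used the 4 groups of both tables, which were normalised separately. The method was tested on simulated data.

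The members and lists were chosen with earlier results of these data known. Named were the 3 largest called rises and falls per comparison, members called in the most comparisons in 1 or both directions, and members differing most often from histidine. Some members with listed roles and some called genes of the other lists were named too. These were not picked strictly by adjusted p, and other called genes of those lists are not named. Coding sequences, fingers (C, 2 to 4 residues, C, 12 residues, H, 3 to 5 residues, H), KRAB matches and shared 31-base stretches came from GENCODE v29 transcripts on GRCh38, read in place of RefSeq proteins. Alternatives were other pseudocounts, filters, scalings (equal totals, trimmed means of M values without and with weights), member levels, a replicate block and leaving out libraries.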

Additional observations from a re-analysis of the deposited data

Results flagged for a closer look

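In 86 groups of 4 or 5 libraries, 8 values stood apart from the rest of their group by Dixon's criterion, and chance flags about 1 in 20 groups. ZNF581 was at 620.4 normalised counts in phenylalanine-restricted library 2, where the other restricted libraries were at 344 to 386. It was at 2245 in branched-chain control 1 of the valine table, where the other controls were at 909 to 1016. ZNF395 was at 999.8 in phenylalanine control 1, where the other controls were at 1616 to 1828. The share of normalised counts from the 218 ZNF genes was 0.899% in phenylalanine-restricted library 2, the lowest of its group. In branched-chain control 1 it was 0.775%, 0.776% and 0.774% in the isoleucine, leucine and valine tables, which hold the same library. These 3 libraries are among the 5 in which ribosomal protein mRNA stood well above their group. ZNF862 was at 562 in tryptophan control 2, which is not 1 of them.

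The other values marked for a closer look are differences between histidine restriction and another restriction that passed the test of the difference itself (limma, adjusted p below 0.05 over all genes). All share the histidine libraries, and the isoleucine, leucine and valine values also share controls. Each is the log2 fold change under histidine restriction minus that under the other. For ZNF512 the differences were 0.30 (methionine), -0.83 (phenylalanine), -0.87 (tryptophan), -1.01 (isoleucine), -0.84 (leucine) and -0.98 (valine). ZNF473 had -1.19 (methionine), -0.49 (phenylalanine), 0.30 (tryptophan), -0.53 (isoleucine), -0.59 (leucine) and -0.85 (valine). The differences of ZNF738 were 0.81 (methionine), -0.47 (phenylalanine), -0.47 (tryptophan), -0.59 (isoleucine) and -0.68 (leucine). Those of ZNF740 were -0.47 (methionine), 0.84 (phenylalanine), 0.42 (isoleucine), 0.33 (leucine) and 0.43 (valine). ZNF207 differed by -0.34 (methionine), -0.38 (phenylalanine), -0.59 (isoleucine), -0.37 (leucine) and -0.53 (valine). ZNF678 differed by 0.62 (tryptophan), 0.85 (isoleucine), 1.06 (leucine) and 1.08 (valine).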

How the results depend on the processing

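The counts of members called were recomputed under other pseudocounts, filters, scalings, member levels, a replicate block and with single libraries left out. With all libraries at equal totals, 11 members fell under histidine restriction, 31 rose under phenylalanine, 102 rose and 30 fell under tryptophan, and 47 rose under valine restriction, and 33 had a higher and 56 a lower fold change under histidine than under tryptophan restriction. Scaling by trimmed means of M values gave 9 falls under histidine and 1 under leucine restriction, and 4 and 15 lower differences against phenylalanine and tryptophan. With weights that treat the values as counts, an alternative chosen after the values were seen, 11 fell under histidine restriction. With a member level of 500 normalised counts, which leaves fewer members, the counts higher and lower were 19 and 10 for histidine and 21 and 28 for tryptophan. At that level 50 rose under methionine, 6 under phenylalanine, 16 under leucine and 8 under valine restriction. The histidine differences were then 11 higher and 34 lower against methionine, 32 higher against tryptophan, 7 and 6 against isoleucine, 6 higher against leucine, and 4 and 7 against valine. Among members with at most 10% shared sequence, a subset chosen after the values were seen, 11 fell under histidine and 16 under methionine restriction, 10 were higher against methionine, and 5, 5 and 10 were lower against phenylalanine, isoleucine and leucine. Without the 5 libraries rich in ribosomal protein mRNA, 57 rose and 12 fell under phenylalanine restriction and 65 and 7 under valine restriction, with 15 higher and 20 lower against phenylalanine and 29 lower against valine. For the histidine differences under other settings no shares of all genes are given, so nothing particular to the members is read from those counts. The cause of these shifts was not tested.

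The replicate block gave 4 rises under phenylalanine, 13 rises and 1 fall under leucine and 48 rises under valine restriction, 2 lower differences against phenylalanine and 8 higher against isoleucine. The libraries share only a number: correlations between same-numbered libraries ran from -0.186 to 0.185.

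With single libraries left out, rises ranged over 32 to 42 and falls over 10 to 21 for histidine, 106 to 112 and 22 to 29 for methionine, 7 to 35 and 5 to 9 for phenylalanine, 41 to 48 and 57 to 61 for tryptophan, 0 for isoleucine, 4 to 31 and 0 to 4 for leucine, and 12 to 45 and 4 to 5 for valine. Higher and lower histidine differences ranged over 16 to 19 and 57 to 65 against methionine, 3 to 12 and 5 to 14 against phenylalanine, 56 to 65 and 23 to 30 against tryptophan, 10 to 19 and 8 to 13 against isoleucine, 6 to 16 and 16 to 35 against leucine, and 4 to 8 and 9 to 25 against valine. The libraries behind the widest of these were phenylalanine-restricted 2 (14 lower), phenylalanine control 1 (12 higher), valine-restricted 2 (25 lower), leucine-restricted 4 (6 higher) and branched-chain control 4 (35 lower against leucine). Shares of all genes with single libraries left out are not given, so nothing particular to the members is read from these ranges.

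Among values of single members, 3126 kept their direction and side of the threshold, 269 were no longer called, 6 became called and 1 reversed: ZNF148 under tryptophan restriction, 0.019 with equal totals. The values rest on estimated transcript counts of 4 or 5 libraries a group, shared sequence blurs near-identical members, and the isoleucine table gave no calls at any gene.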
